A study of Schmidtea mediterranea with 48 samples.

Results

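In the wound faces of unc-22 control planarians, 111 transcripts were higher at 24 hours post-amputation (hpa) than at 0 hpa, by more than at 6 or at 48 hpa on an average over 2 sets of controls. They were selected on the control libraries of both RNAi experiments, out of the 26563 transcripts of the count table, of which 16183 reached a mean of at least 1 CPM (a transcript's count over the library's total count, on one scale for all libraries) in any control group. For each time the change was log2((CPM + 0.5) / (CPM at 0 hpa + 0.5)), from means of 3 libraries, averaged over both experiments and called the control change here. A member had a control change under 0.6 at 6 hpa, at least 0.6 at 24 hpa, and less at 48 than at 24 hpa. The rule allowed at most 150 members, and this limit was not reached.

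The study measured poly(A) RNA in 48 libraries from tail-fragment wounds of Schmidtea mediterranea, strain CIW4. There were 16 groups of 3 libraries, at 0, 6, 24 and 48 hpa, each library from 5 wounds. In the 10-feeding experiment animals ate double-stranded RNA of unc-22 (control) or of myoD 10 times in 5 weeks per the labels, whereas the series text gives 8 feedings. In the 6-feeding experiment they ate double-stranded RNA of unc-22 (control) or of fst (follistatin) 6 times in 3 weeks. All animals, controls included, were thus fed double-stranded RNA and amputated. The sources do not say that replicates came from separate sets of animals, so p-values measure the spread between these libraries, which may be technical. Library totals ran from 7169717 to 22065480 counts. The label of replicate 1 of the fst group at 48 hpa notes human contamination.

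Planarians regrow missing body parts from neoblasts, dividing cells that make all other cell types. A wound first induces a general set of genes in epidermis, muscle and neoblasts, and when tissue is missing a later, sustained phase follows in which neoblasts gather and divide at the wound. Follistatin, an inhibitor of Activin signalling, is induced at wounds and is needed for that later phase, and myoD encodes a transcription factor needed for longitudinal muscle fibres. The deposited files pair 0 of the identifiers with a gene name, so no member has a name or role here. Cell type markers and the levels of myoD and fst themselves could therefore not be read. In bulk RNA, more cells of a type and more RNA per cell cannot be told apart.

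The 24 hpa rise of the members was mostly moderate. Their control change at 24 hpa had a median of 0.79 and ran from 0.60 to 2.34. It was at least 1 in 24 members and at least 2 in 3 of them. At 6 hpa the median control change was 0.33 (from -1.72 to 0.59), with 64 members already at 0.3 or more and 18 below 0. At 48 hpa it was 0.58 (from -3.30 to 2.18). These values chose the members and are given as a description, with no test.

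The name "peaking at 24 hpa" fitted some members better than others. The control change was less than 0.1 below its 24 hpa value at 48 hpa in 30 members, which is a plateau rather than a peak, and 50 members were still at 0.6 or more at 48 hpa. At the other end, 29 members had lost at least 0.6 and 10 at least 1 by 48 hpa, and 12 were below their 0 hpa level. The group mean was highest at 24 hpa in 79 members in the 10-feeding controls and in 86 in the 6-feeding controls, but in only 59 in both.

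**Figure D1:**
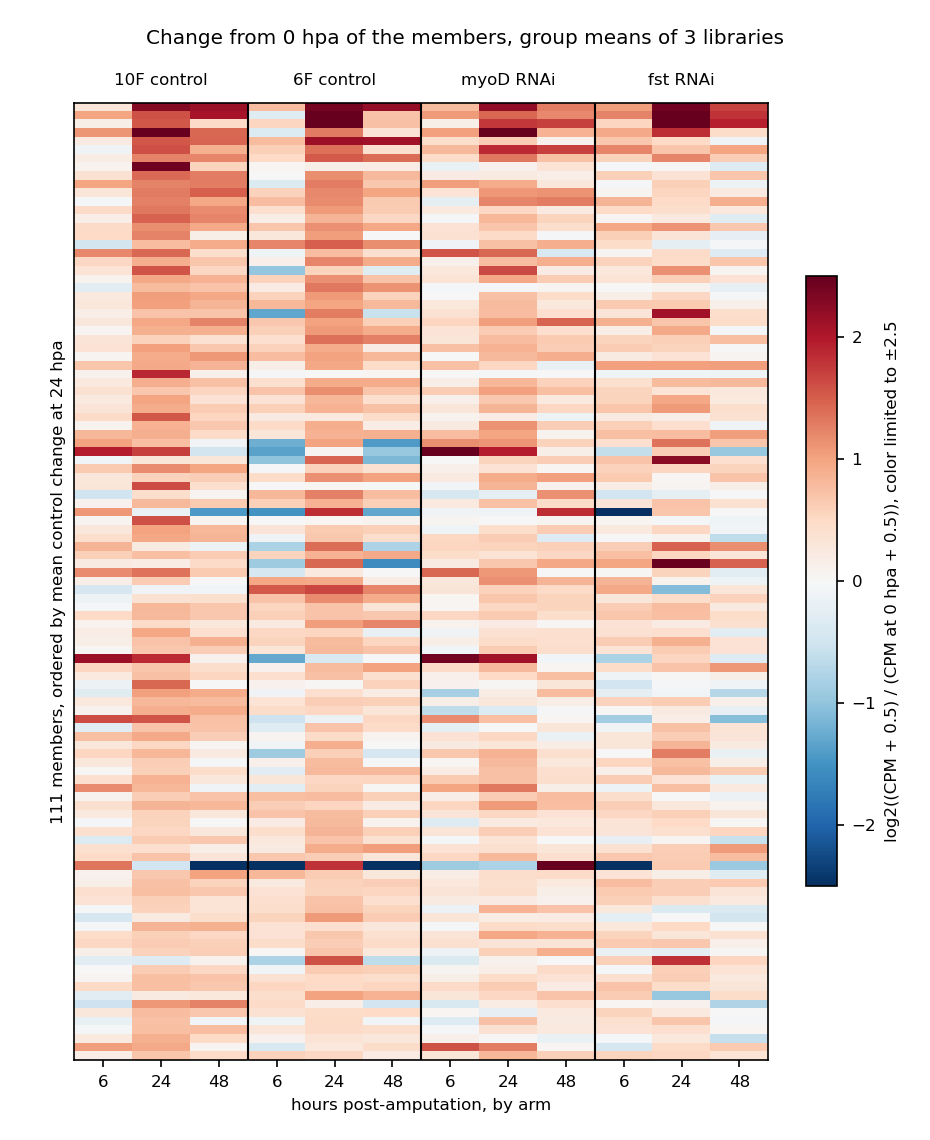
Change from 0 hpa, as log2((CPM + 0.5) / (CPM at 0 hpa + 0.5)) of group means of 3 libraries, for the 111 members (rows, ordered by control change at 24 hpa) at 6, 24 and 48 hpa in the 2 control arms and the 2 RNAi arms (columns). Red is higher and blue lower than at 0 hpa. The 24 hpa columns are red in most rows of every arm, and a few rows are dark in 1 experiment only.

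The experiments did not contribute equally to every member. The 24 hpa change reached 0.6 in both experiments for 57 members, in the 10-feeding controls alone for 32 and in the 6-feeding controls alone for 22. It differed by over 1 between the experiments in 21 members, and in 7 it was below 0 in 1 of the experiments. Levels at 24 hpa, averaged over both controls, spanned 0.522 to 8251 CPM with a median of 15.3 CPM. Of the members, 38 were under 5 CPM, 51 between 5 and 100 CPM, and 22 at 100 CPM or more.

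The member with the largest control change was dd_Smed_v4_9402_0_1. In the 10-feeding controls it stood at 10.3, 18 and 10.2 CPM at 0 hpa, at 15.8, 17.9 and 14.5 CPM at 6 hpa, at 56.5, 71.0 and 67.5 CPM at 24 hpa, and at 69.1, 54.2 and 53.7 CPM at 48 hpa. In the 6-feeding controls it went from 12.5, 15.1 and 13.7 CPM at 0 hpa to 82.8, 72.3 and 67.4 CPM at 24 hpa. The 0 and 24 hpa libraries lay far apart in both experiments, and the level was nearly held at 48 hpa, with a control change of 2.18 against 2.34 at 24 hpa.

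dd_Smed_v4_1940_0_1 was second, with a control change of 2.18 at 24 hpa, but its libraries were uneven. In the 10-feeding controls it rose from 4.0, 3.73 and 3.97 CPM at 0 hpa to 12.4, 13.6 and 12.2 CPM at 24 hpa, and stood at 15.3, 20.7 and 17.4 CPM at 48 hpa. In the 6-feeding controls it stood at 4.20, 19.0 and 34.2 CPM at 0 hpa and at 315.8, 31.7 and 49.9 CPM at 24 hpa, so that the 0 and 24 hpa libraries overlapped and 1 library held most of the rise.

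The pair of most abundant members, dd_Smed_v4_4_1_1 and dd_Smed_v4_7_0_1, held a large part of the counts that the members took. dd_Smed_v4_4_1_1 went from 2129, 1069 and 1418 CPM at 0 hpa to 3835, 10836 and 11695 CPM at 24 hpa in the 10-feeding controls, and from 4882, 1801 and 2786 to 11680, 5051 and 6411 CPM in the 6-feeding controls. Both transcripts varied widely within groups, and in 15 of the 16 groups the same library was highest for both. All members together held 1.11% ± 0.223 (SD, n = 3) of the counts at 0 hpa and 2.45% ± 0.558 at 24 hpa in the 10-feeding controls, and without this pair 0.785% ± 0.131 and 1.08% ± 0.119. In the 6-feeding controls the share went from 1.08% ± 0.246 to 2.14% ± 0.808, and without the pair from 0.473% ± 0.0990 to 0.945% ± 0.278.

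Near the thresholds, members and non-members were alike. dd_Smed_v4_13610_0_1 and dd_Smed_v4_460_0_1 were just inside the 24 hpa limit, at 0.60 each, and dd_Smed_v4_10644_0_1 and dd_Smed_v4_25808_0_1 just outside, at 0.60 and 0.59. For the 6 hpa limit, dd_Smed_v4_4793_0_1 and dd_Smed_v4_6130_0_1 were inside at 0.59 and 0.58, and dd_Smed_v4_55_0_1 and dd_Smed_v4_15258_0_1 outside at 0.61 and 0.60. By the 48 hpa condition, dd_Smed_v4_6118_0_1 and dd_Smed_v4_8983_0_1 were inside with 24 hpa values 0.0034 and 0.014 above those at 48 hpa, and dd_Smed_v4_37037_0_1 and dd_Smed_v4_18131_0_1 were outside with differences of -0.0037 and -0.00021. The conditions at 24 and 6 hpa were met by 528 transcripts, and those at 24 and 48 hpa by 175. Only dd_Smed_v4_9059_1_1 shared its assembly component with another transcript, dd_Smed_v4_9059_0_1, which had a control change of 0.56 at 24 hpa and was no member; reads of the pair may have been counted together or apart.

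Single libraries carried part of the list. Without its highest control library at 24 hpa, the control change fell under 0.6 in 33 members, and in 15 members 1 library held over 50% of the summed CPM of the 6 control libraries at 24 hpa. Replicate 1 of the 6-feeding controls was that library for 11 of the 33, and replicate 3 of the 10-feeding controls for 9. The other 78 members kept a control change of at least 0.6 without their highest control library at 24 hpa; leaving out other libraries was not run for this measure.

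A set of 7 members, chosen after their values were seen, was at least 3 times as high in replicate 1 as in either other library at 24 hpa in both the 6-feeding controls and the fst group. They were dd_Smed_v4_1940_0_1, dd_Smed_v4_17069_0_1, dd_Smed_v4_451_0_1, dd_Smed_v4_15537_0_1, dd_Smed_v4_10991_0_1, dd_Smed_v4_447_0_1 and dd_Smed_v4_14706_0_1. By the same measure only 15 of the 16183 transcripts had this pattern, these 7 included. dd_Smed_v4_451_0_1 stood at 3383, 295.98 and 689.4 CPM in the 6-feeding controls at 24 hpa and at 3012, 205.4 and 647.1 CPM in the fst group, and at 0 hpa at 136.5, 592 and 1453 CPM and at 182.7, 294.2 and 1032 CPM. The 7 moved together: in 7 of the 8 groups of the 6-feeding experiment the same library was highest for every one of them. In the controls and the fst group at 24 hpa, the choice of the 7 fixed this in advance. In the fst group at 48 hpa that library was replicate 1, which is labelled as contaminated. In the 10-feeding experiment, where no group was fixed, the same library was highest for all 7 in 1 of the 8 groups. Replicate 1 of the 6-feeding controls held between 63.4% and 82.2% of the CPM of the 7 over the 6 control libraries at 24 hpa. Without it the control change fell under 0.6 in 6 of the 7.

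**Figure D2:**
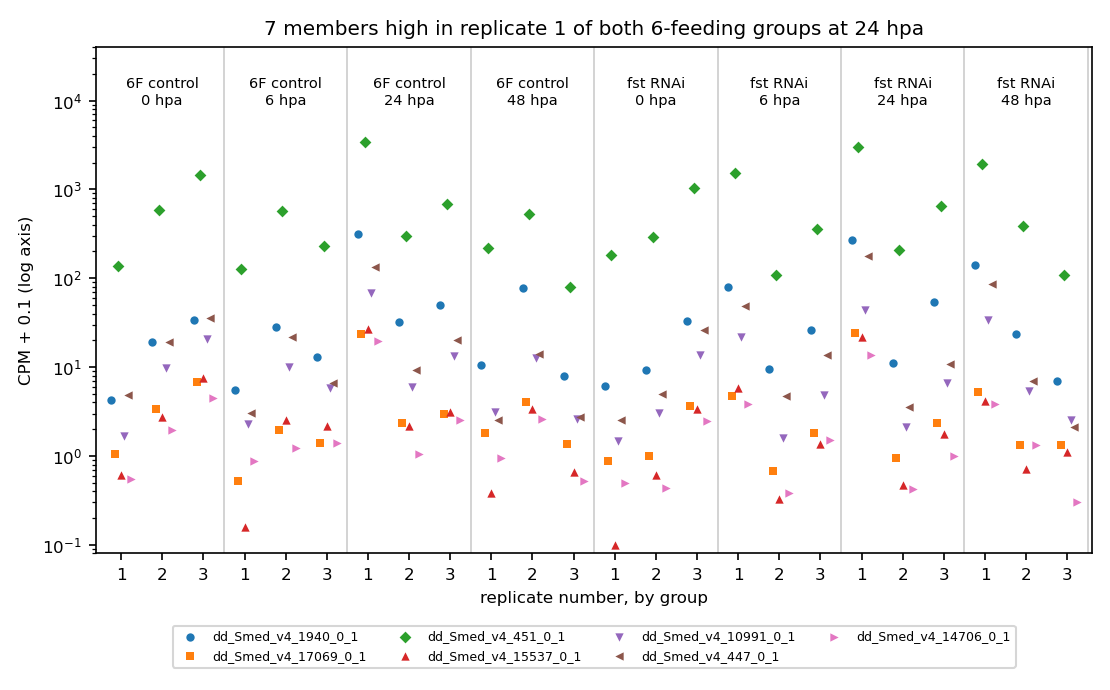
Level, as CPM + 0.1 on a log axis, of the 7 members in each of the 24 libraries of the 6-feeding experiment, by group and replicate number. The 7 markers mostly rise and fall together from library to library. They stand highest in replicate 1 of the control group and of the fst group at 24 hpa, the pattern by which they were chosen.

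Low counts in 1 library made up another set. dd_Smed_v4_26269_0_1, dd_Smed_v4_38769_0_1 and dd_Smed_v4_32022_0_1 were seen at 4.0, 3.0 and 3.37 CPM (88, 66 and 74 counts) in replicate 3 of the 10-feeding controls at 24 hpa and never above 0.134, 0.106 and 0.474 CPM in the other 47 libraries. In all, 12 transcripts stood at 2 CPM or more in 1 library and under 0.5 CPM in all others, and 4 of these were in that library. It also held 95.9%, 91.9% and 88.3% of the summed 24 hpa control CPM of dd_Smed_v4_23455_0_1, dd_Smed_v4_8115_0_1 and dd_Smed_v4_6455_0_1. For dd_Smed_v4_23455_0_1 the control change was 1.29, and 0.11 without that library. dd_Smed_v4_531_0_1 and dd_Smed_v4_1283_0_1 were present or nearly absent from library to library: dd_Smed_v4_531_0_1 stood at 0.119, 0.118 and 140.8 CPM in the 6-feeding controls at 24 hpa, at 32.1, 7.02 and 0.185 CPM at 0 hpa, and had 0 counts in the 3 libraries at 6 hpa. The same library was highest for both in 11 of the 16 groups, with ties given to the first library. These include the 6-feeding controls at 6 hpa, where both had 0 CPM. In 6 groups dd_Smed_v4_1283_0_1 had at most 1 count per library, so its highest library there rests on a tie or on single counts. Nothing is therefore read from this number of groups. All members named in this paragraph, singled out after their values were seen, had most of their summed 24 hpa control level in 1 library.

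Some members followed the experiment more than the time. dd_Smed_v4_12815_0_1, dd_Smed_v4_1636_0_1, dd_Smed_v4_13058_0_1 and dd_Smed_v4_44071_0_1, grouped after their values were seen, rose by at least 1 at both 6 and 24 hpa in the 10-feeding controls, while in the 6-feeding controls they did not exceed 0 at 6 hpa or 0.3 at 24 hpa. Of all 16183 transcripts, 13 met these conditions. dd_Smed_v4_12815_0_1 stood at 2.61, 1.94 and 2.58 CPM at 0 hpa, 11.2, 13.5 and 12 CPM at 6 hpa, 9.81, 10.9 and 9.10 CPM at 24 hpa and 2.54, 2.34 and 2.87 CPM at 48 hpa in the 10-feeding controls. In the 6-feeding controls it stood at 2.86, 3.31 and 3.40 CPM at 0 hpa, 0.959, 0.750 and 1.37 CPM at 6 hpa, and 2.74, 0.942 and 3.32 CPM at 24 hpa. It was high at 6 and 24 hpa in every 10-feeding library and in no 6-feeding library, so its control change at 6 hpa was kept under 0.6 by averaging a rise with a fall. In the myoD group 3 of these 4 rose by at least 1 at both times, and in the fst group 0 did.

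The members were then read in the RNAi libraries, which the rule had not used. After myoD RNAi, 65 of the 111 members were higher at 24 than at 0 hpa (edgeR quasi-likelihood test with p adjusted by Benjamini-Hochberg across the 17527 transcripts tested, and called under 0.05), or 58.6%, against 9.26% of all transcripts. None were lower, by edgeR, by DESeq2 or at an unadjusted p under 0.05, against 8.78% of all transcripts. Over the 106 members that passed the filter on low counts, the median log2 fold change was 0.68, against -0.02 over all transcripts tested, and it was above 0 in 99. The other 5 members were not tested. The 65 called rises had a median log2 fold change of 0.78, or 1.72-fold, and 23 of them were at least 1.

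After fst RNAi, 27 members (24.3%) were higher at 24 than at 0 hpa, against 4.37% of the 17815 transcripts tested. By edgeR 0 were lower, with 3 at an unadjusted p under 0.05 and 0 by DESeq2, against 5.09% of all transcripts. Of the members 105 were tested, with a median log2 fold change of 0.52 against 0.01 over all transcripts, and 93 above 0. Leaving out replicate 1 or replicate 3 of the fst group at 0 hpa gave 17 calls each. Libraries of 1 group varied more in this experiment: the biological coefficient of variation was 13%, or 10.9% without the library labelled as contaminated, against 8.34% in the 10-feeding experiment. Its part in the count was not tested.

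Of the members, 23 were called higher at 24 hpa after both RNAi treatments, 42 after myoD RNAi alone and 4 after fst RNAi alone. Shares of all transcripts called after both treatments, or after a single treatment alone, are not given here. This split of the members is therefore a description, and whether the calls were shared more often than among all transcripts was not tested. A call in 1 group alone is not a test of a difference, which is given further down. In the authors' deposited tables, 60 members were higher at 24 than at 0 hpa after myoD RNAi at an adjusted p under 0.05, against 4.35% of all transcripts there, and 14 after fst RNAi, against 0.913%.

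**Figure D3:**
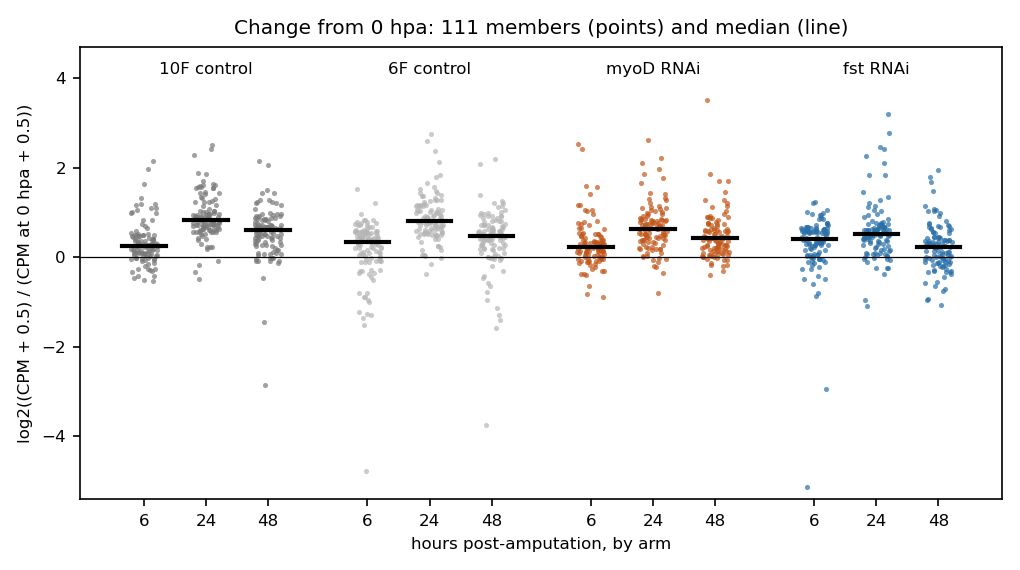
Change from 0 hpa, as log2((CPM + 0.5) / (CPM at 0 hpa + 0.5)) of group means, of each of the 111 members (points) with the median (line), at 6, 24 and 48 hpa in the control arms, which chose the members, and in the RNAi arms. The median is highest at 24 hpa in each arm: 0.83 and 0.81 in the controls, 0.64 after myoD RNAi and 0.53 after fst RNAi.

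The calls were fewer among members that 1 control library carried. In the fit, each transcript's spread came from all libraries of its experiment, controls included. A control library far from the others can thus lower the calls in advance, so this split is given as a description. Of the 33 members whose control change fell under 0.6 without their highest library, 9 were higher at 24 hpa after myoD RNAi and 2 after fst RNAi. Of the other 78 members the counts were 56 and 25. By level, 11 of the 38 members under 5 CPM were called after myoD RNAi. The counts were 35 of the 51 from 5 to 100 CPM and 19 of the 22 at 100 CPM or more. After fst RNAi they were 3, 17 and 7. Over all transcripts 9.26% and 4.37% were called, and shares of all transcripts within these classes were not computed. The counts by class are therefore also a description. Of the 7 members that moved together in the 6-feeding libraries, 2 were called after myoD RNAi and 0 after fst RNAi.

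The largest called rise after myoD RNAi was that of dd_Smed_v4_12241_0_1, from 0.431, 0.255 and 0.117 CPM at 0 hpa to 2.65, 2.20 and 2.04 CPM at 24 hpa. Its log2 fold change was 2.99 ± 0.36 (SE; edgeR adjusted p = 4.96e-07), and the 24 hpa libraries were all above those at 0 hpa. In the fst group the same transcript was higher at 6 than at 24 hpa: 0.392, 0.340 and 0.524 CPM at 0 hpa, 1.64, 1.55 and 1.75 CPM at 6 hpa, and 0.755, 0.747 and 1.44 CPM at 24 hpa. Its log2 fold change there from 0 to 24 hpa was 1.1 ± 0.38 (edgeR adjusted p = 0.068).

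dd_Smed_v4_36283_0_1 rose in both RNAi groups. It went from 0.431, 0.255 and 0.468 to 1.88, 4.18 and 1.5 CPM after myoD RNAi, a log2 fold change of 2.71 ± 0.37 (edgeR adjusted p = 3.82e-06). After fst RNAi it went from 0.588, 0.510 and 0.210 to 9.39, 8.01 and 7.05 CPM, the largest called rise of a member there, with a log2 fold change of 4.20 ± 0.38 (edgeR adjusted p = 8.48e-08). In both groups every 24 hpa library was above every 0 hpa library.

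dd_Smed_v4_9402_0_1, the member with the largest control change, also rose in both. It stood at 12, 11.1 and 10.8 CPM at 0 hpa and at 58.0, 53.7 and 50.8 CPM at 24 hpa after myoD RNAi, and at 16.7, 14.4 and 16.4 and then 74.5, 81.1 and 105.4 CPM after fst RNAi. The log2 fold changes were 2.21 ± 0.17 (edgeR adjusted p = 3.47e-08) and 2.37 ± 0.19 (edgeR adjusted p = 5.48e-08).

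The abundant pair was less certain, because of its spread within groups. dd_Smed_v4_4_1_1 stood at 1433, 3143 and 1477 CPM at 0 hpa and at 6889, 4387 and 26039 CPM at 24 hpa after myoD RNAi, and at 1410, 2420 and 3195 and then 13426, 5506 and 6161 CPM after fst RNAi. The groups did not overlap, and its log2 fold changes were 2.62 ± 0.84 (edgeR adjusted p = 0.039) and 1.76 ± 0.55 (edgeR adjusted p = 0.057). For dd_Smed_v4_7_0_1 they were 1.66 ± 0.66 (edgeR adjusted p = 0.098) and 1.07 ± 0.44 (edgeR adjusted p = 0.15), so that neither passed the test.

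The time of the highest level varied in the RNAi groups. The group mean was highest at 24 hpa in 64 members (57.7%) after myoD RNAi and in 59 (53.2%) after fst RNAi, against 24.2% and 28.5% of the 16183 transcripts at 1 CPM or more. It was highest at 24 hpa in both RNAi groups in 33 members, and in all 4 arms in 24. After myoD RNAi 32 members (28.8%) were highest at 48 hpa, against 39.7% of all transcripts, and after fst RNAi 29 (26.1%) were highest at 6 hpa, against 15.1%.

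Many members were already up at 6 hpa. After myoD RNAi 36 were higher at 6 than at 0 hpa (edgeR adjusted p under 0.05), against 9.85% of all transcripts. After fst RNAi 31 were higher at 6 hpa, against 4.88% of all transcripts, and 20 without replicate 3 of the fst group at 6 hpa. At this time the median log2 fold change was 0.32 after myoD RNAi and 0.48 after fst RNAi.

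The fall from 24 to 48 hpa was called in fewer members. After myoD RNAi 34 were lower at 48 than at 24 hpa, against 6.51% of all transcripts, and 1 was higher, against 5.33%. After fst RNAi 5 were lower, against 0.64% of all transcripts, and DESeq2 called 15. None were higher by edgeR, against 0.438%, with 4 at an unadjusted p under 0.05 and 2 by DESeq2. The count of 5 was unstable: it was 1 without replicate 1 of the fst group at 24 hpa, 2 without replicate 3 of that group or without the library labelled as contaminated, and 13 and 19 without replicate 2 and replicate 3 at 48 hpa. The 0.64% is from the fit of all libraries of the experiment. Shares of all transcripts in the fits without a library are not given here.

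dd_Smed_v4_12815_0_1 had the largest called fall after myoD RNAi, from 12.1, 9.43 and 10.6 CPM at 24 hpa to 2.32, 2.05 and 1.56 CPM at 48 hpa, a log2 fold change of -2.43 ± 0.17 (edgeR adjusted p = 1.42e-11). dd_Smed_v4_13792_0_1 fell from 3.68, 2.89 and 3.48 to 0.949, 0.682 and 0.149 CPM, a log2 fold change of -2.42 ± 0.37 (edgeR adjusted p = 8.54e-05). In both, all 48 hpa libraries were under all 24 hpa libraries. The 1 member that was higher at 48 hpa, dd_Smed_v4_79097_0_1, went from 0, 0.429 and 0.204 to 1.11, 2.27 and 0.595 CPM, with a log2 fold change of 2.36 ± 0.57 (edgeR adjusted p = 0.0071).

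After fst RNAi dd_Smed_v4_36283_0_1 fell to 3.51, 3.31 and 2.54 CPM at 48 hpa, a log2 fold change of -1.35 ± 0.30 (edgeR adjusted p = 0.028), a call lost in 3 of 12 alternatives with an adjusted p of up to 0.116. dd_Smed_v4_6444_0_1 fell from 35.4, 32.3 and 38.7 to 15.4, 23.4 and 25.4 CPM, a log2 fold change of -0.70 ± 0.15 (edgeR adjusted p = 0.019), lost in 4 of 12 alternatives with an adjusted p of up to 0.245. Its lowest 48 hpa value, 15.4 CPM, was in the library labelled as contaminated. Without that library the log2 fold change was -0.57 and the call was lost (edgeR adjusted p = 0.103). The other 3, dd_Smed_v4_1581_0_1, dd_Smed_v4_11142_0_1 and dd_Smed_v4_526_0_1, are named because the count was small, with log2 fold changes of -0.57, -0.55 and -0.52. Against 0 hpa, 39 members were higher at 48 hpa after myoD RNAi (4.2% of all transcripts) and 21 after fst RNAi (10.6% of all transcripts).

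**Figure D4:**
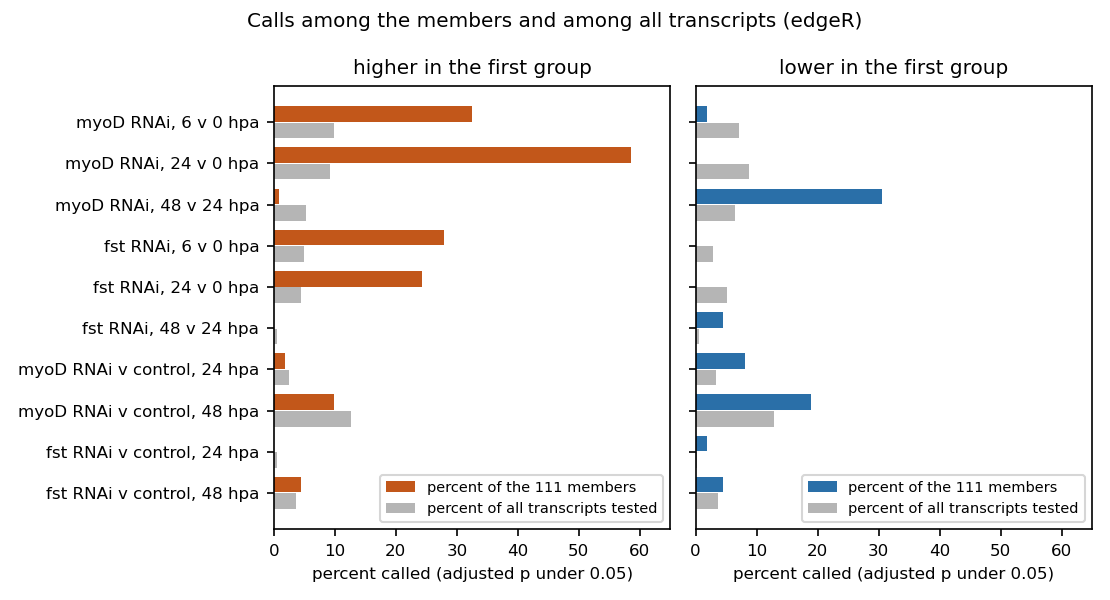
Percent of the 111 members (colored bars) and of all transcripts tested (grey bars) called by edgeR at an adjusted p under 0.05, as higher (left) and lower (right) in the first group of each comparison. The members' bar is longest for myoD RNAi at 24 against 0 hpa, at 58.6% beside 9.26%, and in the RNAi against control comparisons the bars lie closer to the grey ones.

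RNAi was next compared with control at each time. The control libraries of these comparisons had chosen the members, which favours RNAi values below control at 24 hpa and above control at 0, 6 and 48 hpa. The counts over the members and the values of single members against control are therefore descriptions, given with no p, and nothing is read from them. At 0 hpa edgeR called 0 members in either direction after myoD RNAi, against 0.542% of all transcripts lower and 0.0456% higher, with 6 lower and 1 higher at an unadjusted p under 0.05 and 1 lower and 0 higher by DESeq2. At 6 hpa it called 0 again, against 0.365% lower and 0.2% higher, with 8 lower and 9 higher unadjusted and 1 in each direction by DESeq2. At 24 hpa 9 members were lower, against 3.37% of all transcripts, and 2 were higher, against 2.48%. At 48 hpa 21 were lower, against 12.9%, and 11 were higher, against 12.7%. The 9 at 24 hpa became 4 without replicate 3 of the controls at 24 hpa and 5 without replicate 2 of the myoD group at 24 hpa.

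After fst RNAi edgeR called 2 members higher than in controls at 0 hpa, against 0.387% of all transcripts. They were dd_Smed_v4_7651_0_1 and dd_Smed_v4_13892_0_1 with log2 fold changes of 0.83 and 0.94. DESeq2 called 8, and 30 had an unadjusted p under 0.05. In this and the preceding paragraph each percentage of all transcripts is of edgeR calls at an adjusted p under 0.05. No such percentage is given for DESeq2 or for unadjusted p. By edgeR 0 were lower, against 0.258%, with 2 unadjusted and 0 by DESeq2. At 6 hpa 4 were higher (10 by DESeq2 and 26 unadjusted), against 0.421%. They were dd_Smed_v4_1581_0_1, dd_Smed_v4_13892_0_1, dd_Smed_v4_15963_0_1 and dd_Smed_v4_14423_0_1 at 0.46 to 1.11. At this time 0 were lower, against 0.561%, with 5 unadjusted and 1 by DESeq2. At 24 hpa 2 were lower (4 by DESeq2), against 0.298%, and 0 were higher, against 0.544%, with 2 unadjusted and 0 by DESeq2. At 48 hpa 5 were lower, against 3.6%, and 5 higher, against 3.7%. The 2 at 24 hpa became 4 without the library labelled as contaminated, and the 5 lower at 48 hpa became 3 without replicate 1 or replicate 2 of the controls at 48 hpa.

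The same contrasts were read over lists whose choice used none of their libraries. The rule applied to the 6-feeding controls alone gave 109 transcripts, of which 4 (3.67%) were lower and 2 higher after myoD RNAi than in controls at 24 hpa, near the 3.37% and 2.48% of all transcripts. At 48 hpa 13 (11.9%) were lower and 10 higher, near the 12.9% and 12.7%. The rule on the 10-feeding controls alone gave 190 candidates, of which the top 150 were kept. After fst RNAi 1 of these (0.667%) was lower and 2 (1.33%) higher at 24 hpa, beside 0.298% and 0.544% of all transcripts. At 48 hpa 17 (11.3%) were lower and 3 (2%) higher, beside 3.6% and 3.7%. Chosen on its own controls, the 10-feeding list had 23 members (15.3%) lower after myoD RNAi at 24 hpa, beside 3.37% of all transcripts. That count is a description only, because the controls compared had chosen the list.

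The level of dd_Smed_v4_5161_0_1 at 0, 24 and 48 hpa is given as a description. At 6 hpa its mean was 5.03 CPM after fst RNAi and 4.35 CPM in the 6-feeding controls. In the 10-feeding controls it went from 4.06, 3.04 and 3.45 CPM at 0 hpa to 10.6, 11.3 and 12.2 CPM at 24 hpa and 14.0, 8.5 and 8.95 CPM at 48 hpa, and after myoD RNAi from 2.48, 2.71 and 3.75 to 4.87, 3.91 and 5.93 and then 2.79, 3.03 and 3.87 CPM. In the 6-feeding controls it went from 1.27, 3.04 and 2.60 to 14.0, 9.78 and 11.7 and then 14.2, 10.6 and 9.48 CPM, and after fst RNAi from 2.25, 3.40 and 3.30 to 3.99, 4.27 and 5.01 and then 1.5, 3.72 and 3.05 CPM. Every RNAi library at 24 and 48 hpa was under every control library of its experiment and time. Against control the log2 fold change was -1.18 ± 0.18 (SE) after myoD RNAi and -1.45 ± 0.23 after fst RNAi at 24 hpa. At 48 hpa it was -1.62 ± 0.19 and -1.92 ± 0.26.

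At 48 hpa dd_Smed_v4_36283_0_1 was higher after RNAi than in controls, again as a description. It stood at 0.534, 0.660 and 1.16 CPM in the 10-feeding controls and at 1.79, 2.27 and 3.12 CPM after myoD RNAi, and at 0.379, 1.15 and 0.837 CPM in the 6-feeding controls and 3.51, 3.31 and 2.54 CPM after fst RNAi. The groups did not overlap, with log2 fold changes of 1.66 ± 0.35 and 2.12 ± 0.44. At 24 hpa the log2 fold changes against control were 0.33 ± 0.28 and 0.91 ± 0.27.

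**Figure D5:**
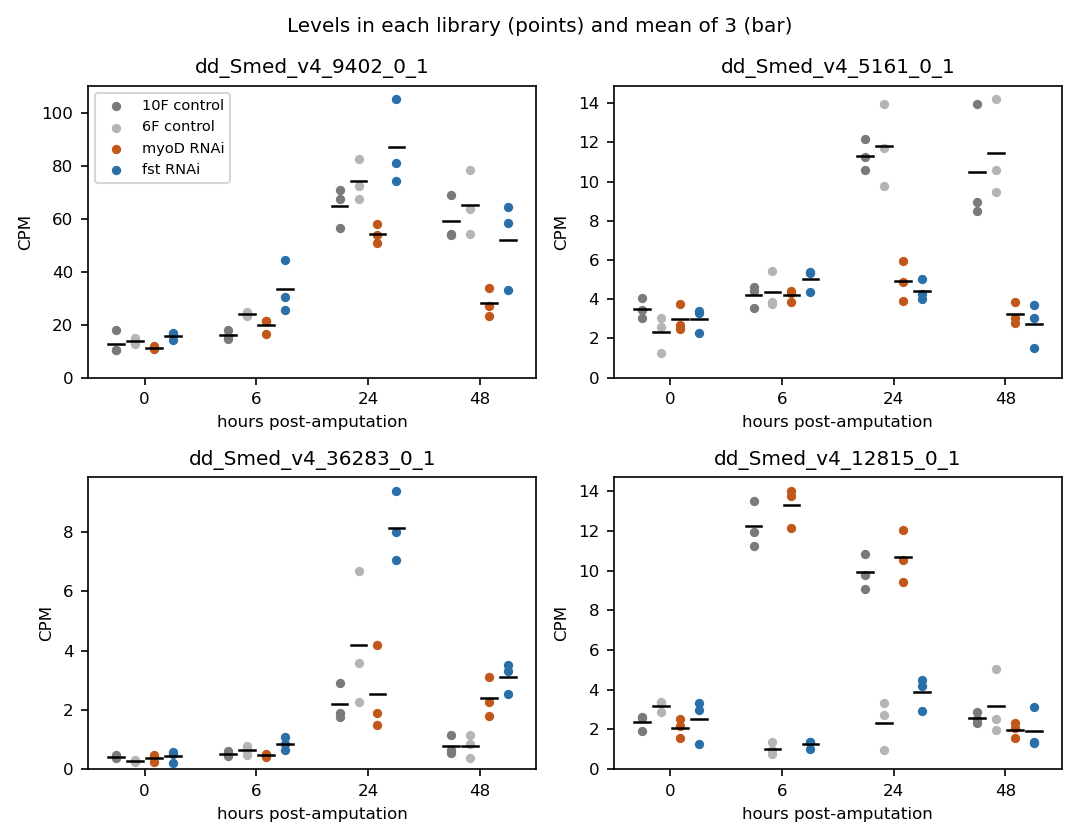
CPM in each library (points) with the mean of 3 (bar) against hours post-amputation, in the control and RNAi arms of both experiments, for 4 members. dd_Smed_v4_9402_0_1 is high at 24 hpa in all arms, dd_Smed_v4_5161_0_1 is higher in the controls than after RNAi at 24 and 48 hpa, dd_Smed_v4_36283_0_1 stays higher at 48 hpa after RNAi, and dd_Smed_v4_12815_0_1 is high at 6 and 24 hpa in both arms of the 10-feeding experiment.

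Other members named by the size of their change were mostly of low level. After myoD RNAi at 24 hpa, dd_Smed_v4_28951_0_1 stood at 0.256, 0.214 and 0.545 CPM against 1.23, 0.944 and 1.05 CPM in controls, a log2 fold change of -1.61 ± 0.49, and dd_Smed_v4_38112_0_1 at 0.256, 0.589 and 0.613 against 1.38, 1.35 and 1.41 CPM, a log2 fold change of -1.39 ± 0.34. The groups did not overlap for either, and the calls that led to their naming were lost in 5 of 11 and 3 of 11 alternatives. At 48 hpa dd_Smed_v4_48447_0_1 was lower (log2 fold change -1.78 ± 0.39) and dd_Smed_v4_79097_0_1 higher (1.64 ± 0.51), the latter call being lost in 2 of 11 alternatives.

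An abundant member, dd_Smed_v4_964_0_1, stood at 116.2, 129.3 and 115.4 CPM after fst RNAi at 24 hpa and at 193.5, 200.7 and 225.4 CPM in controls, without overlap, a log2 fold change of -0.81 ± 0.11. After myoD RNAi it was at 234.5, 194.2 and 211.8 CPM at 24 hpa, overlapping its controls. At 48 hpa after fst RNAi dd_Smed_v4_4903_0_1 was lower than control (log2 fold change -0.60 ± 0.14) and dd_Smed_v4_12241_0_1 higher (1.39 ± 0.41), calls lost in 3 of 12 and 6 of 11 alternatives.

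The 0 to 24 hpa change was compared directly between the RNAi groups, in a fit of all 48 libraries with 18230 transcripts tested. The gene inhibited, the feeding number and the experiment cannot be told apart in it. The change was larger after myoD RNAi than after fst RNAi in 6 members (edgeR adjusted p under 0.05), against 0.302% of all transcripts. By edgeR 0 were smaller, against 0.247%, with 4 at an unadjusted p under 0.05 and 0 by DESeq2. Leaving out 1 library at a time gave 2 to 7 calls: 2 without replicate 2 of the myoD group at 0 hpa, replicate 1 or 3 of it at 24 hpa, or replicate 2 of the fst group at 0 or 24 hpa, and 3 without replicate 1 of the myoD group at 0 hpa, replicate 3 of the fst group at 0 hpa or replicate 1 of it at 24 hpa. For dd_Smed_v4_964_0_1 the difference of log2 changes was 0.89 ± 0.15 (edgeR adjusted p = 0.00082). This transcript rose after myoD RNAi (log2 fold change 0.55 ± 0.10, edgeR adjusted p = 0.00033), and after fst RNAi its log2 fold change was -0.32 ± 0.11 (edgeR adjusted p = 0.077). It is singled out here after its values were seen.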

How the data were processed

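Poly(A) RNA libraries were made with a stranded kit from TriZOL-extracted wounds, per the labels' protocols (strand use in counting: not given in the sources used here). Tools listed in the submitters' processing notes, with no role or order, are Bowtie 1.1.1, cutadapt 1.8, DESeq, CASAVA and SAMtools. The authors deposited 1 table of whole-number counts per transcript and library, used for all results unless said otherwise, and 20 tables of pairwise comparisons. In those, group means are a normalised signal (counts divided by size factors, as deposited), the fold change is a ratio of these means, the log2 fold change is its log2, and a raw and an adjusted p-value by the authors stand beside it. The labels of some 6-feeding libraries list tables of the other group; table headers were used, and each group mean in them was closest to the counts of the group its header names.

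The members and lists were chosen with earlier results of these data known. CPM used column totals. Tests used R 4.3.3 and edgeR 4.0.16 (filterByExpr, TMM, robust quasi-likelihood F-tests, 1 coefficient per group), on 24 libraries per experiment and on all 48 for differences between experiments, with transcripts called at an adjusted p under 0.05. The standard error is the absolute log2 fold change over the square root of F. A test on simulated counts, drawn with the same spread for all transcripts of an experiment, recovered the larger known fold changes. Its limit for passing covered only changes larger than the median called rise, 1.72-fold after myoD RNAi and 1.56-fold after fst RNAi. Recovery of smaller changes is not given here. Members whose libraries vary more than the simulated spread were not covered by the test. DESeq2 1.42.0 was an alternative; an adjusted p it gave as NA stayed NA. In each comparison the rule for names took the 2 most positive and 2 most negative log2 fold changes among called members at 1 CPM or more in 1 group and without overlap of libraries, then the 2 with the largest control change, the 2 most abundant and those next to each threshold; their values were followed into other comparisons. Others were chosen after their values were seen. No sequences are shown, and no genome was used here.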

Additional observations from a re-analysis of the deposited data

Results flagged for a closer look

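The 0 to 24 hpa change of dd_Smed_v4_9627_0_1 differed between the RNAi groups, by 2.49 ± 0.63 on the log2 scale (edgeR adjusted p = 0.0497, interaction contrast over 48 libraries). The transcript stood at 0.377, 0.306 and 0.293 CPM at 0 hpa and at 1.2, 0.536 and 1.29 CPM at 24 hpa after myoD RNAi, and at 0.392, 0.85 and 0.576 and then 0.432, 0.267 and 0.379 CPM after fst RNAi. It was higher at 24 hpa in every myoD library, while the fst libraries overlapped. The call was lost in 15 of 19 alternatives, with an adjusted p of up to 0.247.

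The change of dd_Smed_v4_12815_0_1 was also larger after myoD than after fst RNAi, by 1.76 ± 0.42 (edgeR adjusted p = 0.0336), and the call was lost in 8 of 19 alternatives, with an adjusted p of up to 0.212. Its controls differed in the same direction, at 1.86 in the 10-feeding and -0.38 in the 6-feeding experiment at 24 hpa. The gene inhibited and the experiment cannot be told apart for either transcript.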

How the results depend on the processing

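Of 274 recomputed counts and shares over the members, 215 stayed within 1.5 times the value reported. Of 288 recomputed values of named members, 237 kept direction and call, 51 lost the call and 0 reversed.

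Leaving out 1 library at a time, the members called after fst RNAi numbered 17 to 37 for higher at 24 than 0 hpa, 20 to 38 for higher at 6 hpa, 1 to 19 for lower at 48 than 24 hpa, and 2 to 4 and 3 to 7 for lower than control at 24 and 48 hpa. They numbered 4 to 11 for lower than control after myoD RNAi at 24 hpa and 2 to 7 for the difference in 24 hpa change. DESeq2 called 15 members lower at 48 than 24 hpa and 4 lower than control at 24 hpa after fst RNAi, and 8 and 10 higher than control at 0 and 6 hpa, where edgeR called 2 and 4. With only the groups compared in the fit, the fst counts were 48 (higher at 6 hpa), 0 (lower at 48 than 24 hpa; fewer libraries estimate the spread), 4 and 1 (lower than control at 24 and 48 hpa). Without scaling beyond library totals, 13 were lower than control after fst RNAi at 48 hpa. The cause of these shifts was not tested.

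Other forms of the rule changed the share of the list called. Of all transcripts, 0.64% were lower at 48 than 24 hpa after fst RNAi and 6.51% after myoD RNAi. After fst RNAi 4.37% were higher at 24 and 4.88% at 6 than at 0 hpa. Lower than control were 3.37% and 12.9% after myoD RNAi at 24 and 48 hpa, and 0.298% and 3.6% after fst RNAi. The 24 hpa change differed in 0.302% upward and 0.247% downward. Shares against control are descriptions where the list was chosen on those controls. A control change of at least 1 at 24 hpa left 24 members, with 16.7% lower at 48 than 24 hpa after fst RNAi, 12.5% and 33.3% lower than control after myoD RNAi at 24 and 48 hpa, 4.17% and 12.5% after fst RNAi, and 0% with a different 24 hpa change. A fall of at least 0.3 by 48 hpa left 41 members. Of these, 14.6% were higher at 24 and 14.6% at 6 than at 0 hpa after fst RNAi, 0% and 2.44% were lower than control after myoD RNAi at 24 and 48 hpa, and 0% at both times after fst RNAi. The list from the 10-feeding controls alone had 15.3% lower than control after myoD RNAi at 24 hpa, 0.667% and 11.3% after fst RNAi at 24 and 48 hpa, and 1.33% with a different change. That from the 6-feeding controls alone had 15.6% lower at 48 than 24 hpa after myoD RNAi, 3.67% and 11.9% lower than control at 24 and 48 hpa, 2.75% lower after fst RNAi at 48 hpa, and 1.83% with a different change. A pseudocount of 0.1 gave 2.67% lower at 48 than 24 hpa after fst RNAi and 5.33% lower than control after myoD RNAi at 24 hpa, and TMM-scaled CPM gave 8.66% lower than control after fst RNAi at 48 hpa. Leaving 1 control replicate number out of the rule gave 6.82% (number 1) and 2.5% (number 3) lower than control after fst RNAi at 48 hpa, 0% at 24 hpa (number 3), 3.33% with a different change (number 3), and 20% (number 2) lower at 48 than 24 hpa after myoD RNAi.

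Same-numbered libraries did not deviate together in every pair (correlations from -0.174 to 0.209), so the numbers were not taken to pair the samples, although the set of 7 members stood highest in replicate 1 of both groups of the 6-feeding experiment at 24 hpa. With a replicate block the counts were 65 and 27 higher at 24 than 0 hpa after myoD and fst RNAi, 32 and 4 lower at 48 than 24 hpa, and 9, 21, 2 and 4 lower than control, within 1.5 times of those without it.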
